A study of Homo sapiens with 6 samples.

Results

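Solute carrier genes, whose symbols start with SLC, were followed across the 6 arrays of an expression study of U373, a human glioblastoma cell line. All probe sets with a single gene symbol made of SLC and a family number were taken. Left out were the glutamate transporter genes SLC1A2 and SLC1A3, the glucose transporter genes SLC2A1 and SLC2A3, the heteromeric amino acid transporter genes SLC3A2, SLC7A5 and SLC7A11, and the lactate transporter gene SLC16A3. This gave 173 probe sets of 142 genes, out of 12558 probe sets on the array that were not controls and stand for 8226 named genes. Another 5 probe sets carried an SLC symbol beside other symbols and were not used. A single probe set stood for 115 genes, and 27 genes had 2 or more. By their symbols, 2 of the 173 probe sets stand for no transporter, the antisense transcript SLC67A1-AS and the pseudogene SLC26A10P, and neither was bright enough to be tested.

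RNA was measured on Affymetrix Human Genome U95 Av2 arrays, with 1 array per condition. Cells without transfection and without treatment were collected at day 1. The other 5 arrays held cells transfected with syk, the gene of a cytoplasmic tyrosine kinase, in an ecdysone-inducible system. On day 1 they were left untreated, given ethanol, or given ethanol with PonA, and on day 2 they were left untreated or given ethanol with PonA. PonA (ponasterone A, a steroid from plants) switches on a gene placed behind an ecdysone-responsive promoter, and its labelled dose was 10 µM. The labels give 6 to 48 hours of exposure for the series as a whole and no hours for a single array. The label of the PonA array at day 2 spells the gene as sky. Whether the transfected cells were 1 clone or a pool is not given in the sources used here. An ethanol array at day 2 and a PonA array of cells without the syk construct were not part of the samples used here. Every condition was a single array, so no spread given here is one between repeats of a condition. Whether cultures were independent is not stated.

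Solute carriers are membrane proteins that move small molecules without splitting ATP themselves. Most are driven by the gradient of the solute itself or by sodium, proton, potassium or chloride gradients, and the remainder exchange one solute for another. In glial cells they are known for the uptake of glutamate and other amino acids, for the release of glutamine and lactate, for pH and cell volume control through bicarbonate and chloride, and for organic osmolytes such as myo-inositol and taurine. The SLC25 family lies mostly in the inner mitochondrial membrane and links the cytosol with the mitochondrial matrix. The SLC30 family carries zinc out of the cytosol and the SLC39 family carries it in.

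The untransfected array stood apart in marker genes. GFAP, the astroglial intermediate filament gene, read 1533 signal units there and 103 to 229 on the 5 transfected arrays. NEFL, a neuronal intermediate filament gene, read 458 and 10.1 to 26.5. SYK, the transfected gene, had 3 probe sets, none of which passed the PonA test used below. One read 22.2, 14.4 and 20.01 on the transfected controls (untreated day 1, ethanol, untreated day 2) and 39.1 and 72.5 with PonA at day 1 and day 2, higher with PonA on both days (limma effect 1.04 ± 0.26, adjusted p = 0.0803). All 3 of these controls were under the detection floor defined below, so that effect is computed against floor values. Another read 73.1, 64.1 and 22.02, then 56.4 and 35.2, with overlap, and the last was under the floor throughout. The arrays are therefore called here by PonA, not by the state of syk. VIM, the filament gene of many glioma lines, lay between 4919 and 6458 on all 6 arrays, and the astroglial water channel gene AQP4 was under the detection floor defined below on all of them. Pairwise correlations of log2 signal over all probe sets lay between 0.946 and 0.985. Bacterial spike-in signal, as the geometric mean of 9 probe sets, came to 157 without transfection, to 270.5 for ethanol and to 352 to 501 on the remaining 4 arrays. ACTB 3'-to-5' signal ratios were 0.960 to 0.987 at day 1 and 1.20 and 1.21 at day 2, while those of GAPDH lay between 0.939 and 1.04. The part of these differences in the results on SLC genes was not tested.

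Detection was described first, with no comparison between probe sets. The 40th percentile of each array, 22.7 to 26.5 signal units, served as the floor, and any lower signal was set to it. Of the 173 probe sets, 83 (48%) were above the floor on all 6 arrays, 35 on 1 to 5 arrays, and 55 on none. The share over all probe sets of the array was 51.4%. Mitochondrial carriers and amino acid transporters were above the floor on all 6 arrays most often, with 14 of 23 and 17 of 29 probe sets. Ion transporters followed with 22 of 47. Among nucleoside transporters it was 1 of 4, and in the sugar class 1 of 7. The sugar class includes SLC5A12, a monocarboxylate carrier placed there by its family. The remaining 63 probe sets had 28. They belong to carriers of monocarboxylates, osmolytes, creatine, vitamins, bile acids, organic ions, nucleotide sugars and substrates not known here, and include SLC67A1-AS and SLC26A10P. All 7 probe sets of the SLC35 family, which brings nucleotide sugars into the Golgi and endoplasmic reticulum, were above the floor on every array.

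**Figure D1:**
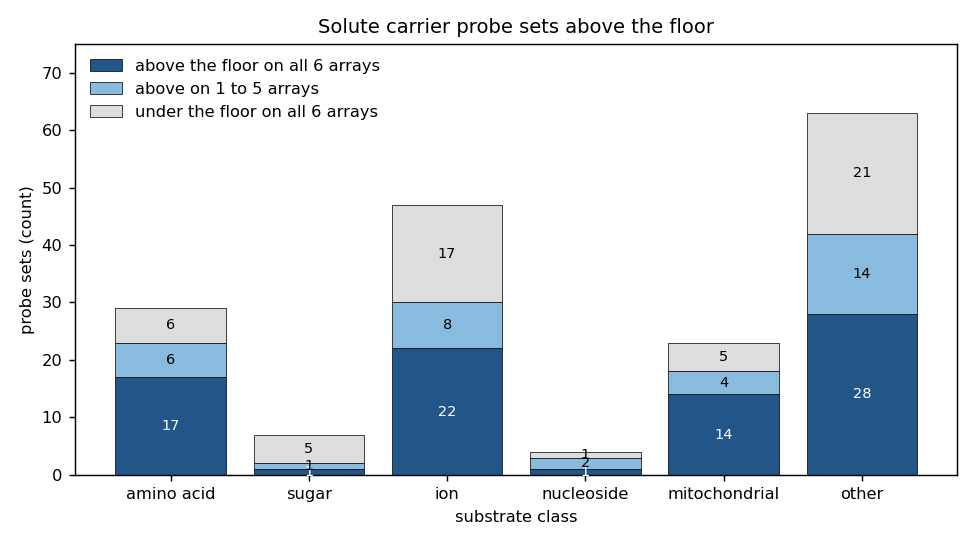
Number of SLC probe sets (vertical axis, count) per substrate class (horizontal axis) that were above the detection floor on all 6 arrays, on 1 to 5 arrays or on none, drawn as stacked bars. In the sugar class 5 of 7 probe sets were under the floor on every array, against 5 of 23 in the mitochondrial class.

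The 2 brightest probe sets of the larger classes are given array by array. The mitochondrial phosphate carrier gene SLC25A3 read 2144 in untransfected cells, 2065, 2000 and 2209 on the untreated day 1, ethanol and untreated day 2 arrays, and 1795 and 1810 with PonA at day 1 and day 2. Both PonA arrays were below the controls, and its PonA effect of -0.23 ± 0.16 did not pass the test described below (adjusted p = 0.529, limma). The citrate carrier gene SLC25A1 read 1267 in untransfected cells, 1225, 1834 and 1051 on the same 3 control arrays, and 1455 and 1380 with PonA. The neutral amino acid and glutamine exchanger gene SLC1A5 read 489, then 549, 990 and 383, then 675 and 645. For both genes the ethanol array was the highest of the 6. SLC38A10, of a family of sodium-coupled neutral amino acid transporters, read 242, then 380, 417 and 525, then 481 and 507, and was lowest without transfection. SLC75A1 read 518, then 739, 892 and 833, then 806 and 1011. SLC10A3, a relative of the bile acid transporters, read 448, then 514, 694 and 418, then 678 and 548. The equilibrative nucleoside transporter gene SLC29A1 read 288, then 420, 423 and 411, then 504 and 383, so that its untransfected array was again the lowest.

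The main comparison asked which SLC genes differed with PonA, the agent meant to switch on the syk construct. It set the 2 PonA arrays against the 3 transfected control arrays in an additive limma fit with terms for PonA and day, over 7934 probe sets that exceeded the floor on 2 or more of these arrays, with Benjamini-Hochberg adjustment over all of them. A PonA effect is a log2 difference of floored signal, PonA minus control, with its standard error. That error rests on 2 residual degrees of freedom. They hold the ethanol difference at day 1 and the difference of the PonA effect between days. limma also draws the error toward the spread of all tested probe sets, so it does not measure the spread between repeated cultures. Of the SLC probe sets, 105 (91 genes) were tested. The levels of 5 rose and those of 2 fell at an adjusted p under 0.05. SLC5A3, SLC16A4, SLC1A1 with both of its probe sets, and SLC6A6 rose, and SLC38A3 and SLC25A20 fell. The 7 called probe sets are 6.67% of those tested, while 5.07% of all tested probe sets were called. In the higher direction it was 4.76% of the SLC probe sets against a background of 2.7%, and in the lower direction 1.9% against 2.37%. The total share lies near the background, so the count of called genes is no result about SLC genes as a group. Without adjustment, 24 SLC probe sets (22.9%) had a p under 0.05, close to the 19.5% of all tested probe sets.

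The direction of small effects leaned upward among SLC genes. The median PonA effect was 0.16 over the 105 SLC probe sets and 0.01 over all tested probe sets. Effects were above 0 for 78 of the 105 (74.3%), against 50.8% of all. Signals on both PonA arrays exceeded all 3 controls for 31 SLC probe sets (29.5%), where 16.7% of all tested probe sets did so. They lay under all 3 controls for 9 (8.57%), with a background of 16.2%. By class, the median effect was 0.26 for 24 ion transporters, 0.21 for the 36 of the remaining substrates, 0.13 for 22 amino acid transporters, 0.10 for 3 nucleoside transporters, 0.10 for 18 mitochondrial carriers and -0.04 for 2 sugar transporters. Without the PonA array of day 1 the share of effects above 0 was 58.8% (48.1% of all), and without the PonA array of day 2 it was 72.5% (51.2% of all). With ethanol as a term of its own it was 61%, against 52.7% of all. In single-array comparisons, 66 of 108 SLC probe sets were above 0 for PonA over ethanol on day 1. Over no treatment it was 81 of 108 on day 1 and 62 of 108 on day 2.

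**Figure D2:**
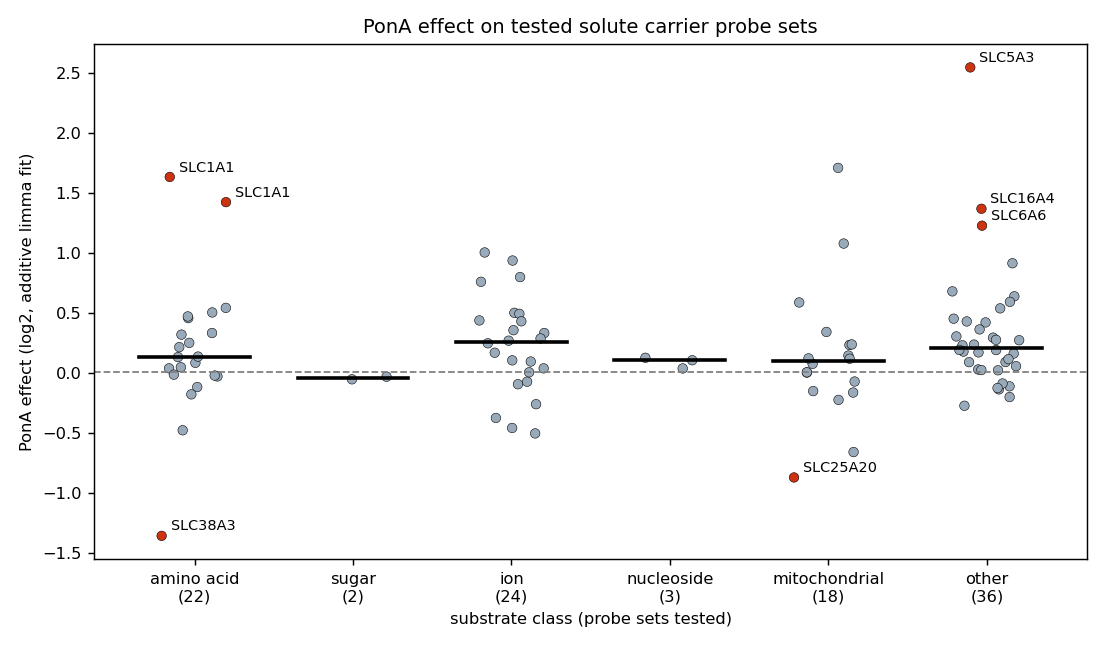
PonA effect (vertical axis, log2 difference, PonA minus control) of each tested SLC probe set, 1 point per probe set, by substrate class, with the class median as a bar, the median of all tested probe sets as a dashed line, and the 7 called probe sets in red and named. SLC5A3 lies highest at 2.54 and SLC38A3 lowest at -1.36, while class medians lie between -0.04 and 0.26.

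Osmolyte transporters held the SLC gene with the highest PonA effect. SLC5A3 is the sodium-coupled myo-inositol transporter, which many cells use to gather myo-inositol when the medium is hypertonic. Its probe set 40813_at read 67.2 in untransfected cells, 81.2 untreated at day 1, 115 with ethanol at day 1 and 88.2 untreated at day 2, against 416 with PonA at day 1 and 770 with PonA at day 2. The PonA arrays were the highest of all 6 on both days, with no overlap. Its effect was 2.54 ± 0.29, a 5.83-fold rise with an adjusted p of 0.00697 (limma). In single-array comparisons PonA stood 3.62-fold over ethanol and 5.13-fold over no treatment on day 1, and 8.73-fold over no treatment on day 2. In RefSeq's annotation SLC5A3 overlaps MRPS6, the gene of a mitochondrial ribosomal protein, and shares its start, and no probe set with the single symbol MRPS6 was among those used here. The platform assigns 40813_at to SLC5A3, but from its signal transcripts of SLC5A3 and of MRPS6 cannot be told apart. The second SLC5A3 probe set, 40812_at, was dim, at 6.48, then 15.1, 9.82 and 7.67 on the controls, all under the floor, and 35.6 and 45.4 with PonA. Its effect of 0.68 ± 0.19 did not pass the test (adjusted p = 0.108, limma), and since its controls were at the floor the fold at day 2 was at least 1.96.

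SLC6A6, the sodium- and chloride-coupled transporter of taurine, another organic osmolyte, was the other called gene of this kind. Its probe set 35121_at read 125 in untransfected cells, 62.4, 47.7 and 42.9 on the untreated day 1, ethanol and untreated day 2 arrays, and 120 and 108 with PonA at day 1 and day 2. Among transfected cells the PonA arrays were the highest, and they stayed just under the untransfected array. Its effect was 1.23 ± 0.19, a 2.34-fold rise (adjusted p = 0.0222, limma). The adjusted p was 0.11 when the day 1 PonA array was left out, 0.142 when that of day 2 was, and 0.127 when the day 2 untreated array was. SLC6A8 carries creatine, which buffers ATP and is counted among organic osmolytes. Its brighter probe set read 378, then 411, 663 and 298 on the controls, and 677 and 921 with PonA, so the ethanol array lay beside the PonA array of day 1. That effect was 0.91 ± 0.34 (adjusted p = 0.211, limma), and its name marks it as able to detect more than 1 gene of a family. The dimmer SLC6A8 probe set read 50.2, then 37.1, 25.4 and 40.8, and 48.9 and 34.2, with PonA and control arrays overlapping. SLC6A6 and SLC6A8 belong to a group of neurotransmitter and osmolyte carriers with 10 probe sets, of which 6 were tested. Of these, 4 had an effect above 0 and 1 was called (background 5.07%), with a median effect of 0.22. SLC6A12 and SLC6A13, of the same group, were under the floor on all 6 arrays. The genes given here are thus no result about osmolyte carriers as a group.

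The promoters of the called genes that RefSeq holds are printed for SLC5A3, SLC1A1 and SLC16A4, the 3 genes with probe sets at least 2-fold higher with PonA in all 3 single-array comparisons. Each is the 250 bases before the gene's start in assembly GRCh38.p14, 5′ to 3′ on the gene's strand, with capitals marking the GC box GGGCGG on either strand. They lie at chr21:34073328-34073577 on the plus strand, chr9:4490218-4490467 on the plus strand and chr1:110391027-110391276 on the minus strand.
SLC5A3: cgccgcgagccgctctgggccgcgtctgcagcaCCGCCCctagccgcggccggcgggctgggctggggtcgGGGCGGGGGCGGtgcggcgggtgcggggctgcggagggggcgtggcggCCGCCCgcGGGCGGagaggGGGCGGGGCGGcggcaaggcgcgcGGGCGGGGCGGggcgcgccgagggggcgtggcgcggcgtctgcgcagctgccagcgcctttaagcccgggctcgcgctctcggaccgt
SLC1A1: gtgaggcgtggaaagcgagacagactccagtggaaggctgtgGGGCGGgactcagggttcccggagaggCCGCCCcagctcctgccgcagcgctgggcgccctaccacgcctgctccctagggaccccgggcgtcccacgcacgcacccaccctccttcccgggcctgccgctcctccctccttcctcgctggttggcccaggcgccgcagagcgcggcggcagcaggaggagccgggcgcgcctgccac
SLC16A4: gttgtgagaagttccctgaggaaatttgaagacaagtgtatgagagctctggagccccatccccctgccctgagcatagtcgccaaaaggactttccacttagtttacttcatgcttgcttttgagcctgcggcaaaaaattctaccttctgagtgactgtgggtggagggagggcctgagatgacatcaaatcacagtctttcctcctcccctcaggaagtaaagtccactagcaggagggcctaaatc
The SLC5A3 window held 9 GC boxes, some of which overlap each other, and 84.8% of its bases were G or C. The SLC1A1 window held 2 GC boxes and 74.4% G or C, and the SLC16A4 window held none and 49.6%. The SLC25A20 window, at chr3:48898883-48899132 on the minus strand, held 3 and 66%. GC boxes were found in 42.6% of 35116 promoter windows of this length and in 50.0% of the 172 windows of SLC genes, with median G or C of 58.0% and 62.8%. Other motifs searched on both strands were the nuclear receptor half-site AGGTCA, in 12.1% of all windows, the AP-1 site TGANTCA, in 6.57%, the amino acid response element core TGATGNAA, in 3.14%, the tonicity element TGGAAA with any 4 bases and C after it, in 4.37%, and the CCAAT box CCAAT, in 32.0%. None of these letters occurred in the 4 windows, which says nothing about binding elsewhere. Of the 142 genes, 119 had an entry, and SLC6A6 and SLC38A3 did not.

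**Figure D3:**
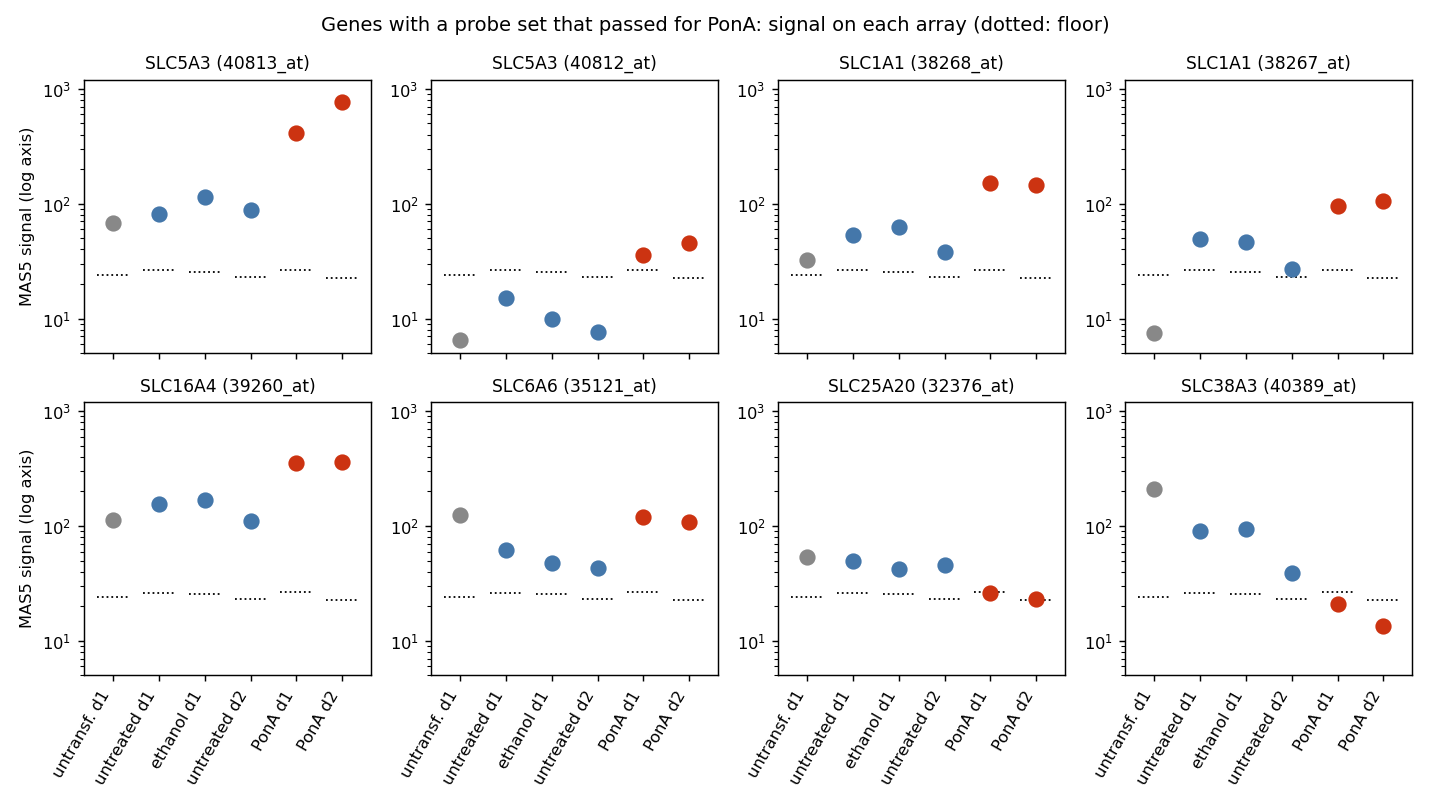
MAS5 signal (vertical axis, log scale, signal units) of the 7 called SLC probe sets and the dimmer SLC5A3 probe set on each of the 6 arrays (horizontal axis), 1 point per array, with each array's floor as a dotted line. In the 5 that rose both PonA arrays stand above the 3 transfected controls, and in SLC38A3 and SLC25A20 both stand below them.

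Among amino acid transporters, 2 of 22 tested probe sets rose, both of SLC1A1, and 1 fell, of SLC38A3. SLC1A1 encodes a glutamate and cysteine transporter that is mostly neuronal in the brain. Its probe set 38268_at read 32.6 in untransfected cells, 53.8, 62.3 and 37.7 on the controls in the order above, and 153 and 145 with PonA at day 1 and day 2. The PonA arrays did not overlap with any other array, and the effect was 1.63 ± 0.20, a 3.10-fold rise (adjusted p = 0.00902, limma). Probe set 38267_at read 7.41, then 49.3, 46.5 and 27.1, then 96.4 and 106, with the same order of groups. Its effect was 1.42 ± 0.25, a 2.68-fold rise (adjusted p = 0.0288, limma). The 2 probe sets share the arrays and are not separate evidence about the conditions. Without the untreated array of day 2 their adjusted p was 0.0551 and 0.136, and without the PonA array of day 2 it was 0.0635 and 0.152.

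SLC38A3 moves glutamine with sodium in exchange for protons and is a known glutamine exporter of astrocytes. Its probe set 40389_at read 210 in untransfected cells, 90.2 untreated and 93.7 with ethanol at day 1, 38.9 untreated at day 2, and 21.1 and 13.3 with PonA at day 1 and day 2. Both PonA arrays were under the floor, and the untreated array of day 2 lay between them and day 1. The effect was -1.36 ± 0.26 (adjusted p = 0.0364, limma). As the PonA values were at the floor, the day 1 PonA array was at least 3.54-fold below ethanol and at least 3.41-fold below no treatment, and the day 2 PonA array at least 1.71-fold below no treatment. The call remained under 7 of the 13 alternative settings that gave a value, and effects over all settings ran from -1.87 to -0.18. It was lost with quantile normalization, without the day term and with ethanol as a term of its own, among others. Leaving out the PonA array of day 1 also ended it, with an effect of -0.77. Fewer cells of a kind and less RNA per cell cannot be told apart in these bulk samples, here and in every other comparison.

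Marker genes of cell types that are known to hold these transporters were set beside them. Of 8 neuronal marker genes on the array, 5 were tested and 1 fell, GAP43, a growth cone protein gene, at 285 untransfected, then 219, 184 and 322 on the controls and 64.7 and 75.7 with PonA (effect -1.83 ± 0.20, adjusted p = 0.00599, limma). The summed signal of the neuronal list was 391 to 541 on the controls and 218 to 224 on the PonA arrays. GAP43 was the largest part of it on each of these arrays, so the sum is not a result separate from GAP43. Effects of the other tested genes were -0.47 for SYP, -0.25 for DLG4, -0.06 for NEFL and 0.08 for SYT1, none of them called. Of 9 astroglial marker genes 8 were tested and none was called, and their summed signal was 11590 to 12700 on the controls and 12540 to 13270 with PonA, with AQP4 under the floor throughout. Their part in the values of SLC1A1 and SLC38A3 was not tested.

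The remaining amino acid transporters had PonA effects that did not pass. SLC1A4, an exchanger of small neutral amino acids, read 182 in untransfected cells, 139, 249 and 119 on the controls and 213 and 240 with PonA on its brighter probe set (effect 0.54 ± 0.31, adjusted p = 0.417, limma). SLC7A1, a carrier of arginine and lysine, read 215, then 161, 258 and 174, then 257 and 274 on its brighter probe set (0.47 ± 0.25, adjusted p = 0.369, limma). In both genes the ethanol array lay at or above the level of the PonA array of day 1. SLC6A5, the neuronal glycine transporter gene, read 10.3, then 44.8, 48.5 and 21.0, then 25.8 and 10.2, and was higher at day 1 than at day 2 among the controls, while both PonA arrays were under the floor (-0.48 ± 0.22, adjusted p = 0.316, limma). SLC36A1, a proton-coupled amino acid transporter of lysosomes, read 49.7, then 44.4, 43.2 and 47.7, then 70.5 and 52.9, so both PonA arrays were above the others, that of day 2 by little (0.46 ± 0.19).

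SLC16A4 belongs to the monocarboxylate transporter family, and its own substrate was long unknown. Its probe set 39260_at read 114 in untransfected cells, 156, 168 and 111 on the controls, and 352 and 358 with PonA at day 1 and day 2. The PonA arrays were close to each other and above every other array. Its effect was 1.37 ± 0.20, a 2.58-fold rise (adjusted p = 0.0169, limma), with single-array folds of 2.10 over ethanol and 2.25 over no treatment on day 1, and 3.24 over no treatment on day 2. Without the untreated or the PonA array of day 2 the adjusted p was 0.103 and 0.116. SLC15A2, a transporter of di- and tripeptides, read 8.38, then 16.2, 18.0 and 26.9, then 34.2 and 52.0, mostly under the floor on the controls (0.64 ± 0.19, adjusted p = 0.131, limma).

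None of the 24 tested ion transporter probe sets was called by limma, 7 had an unadjusted p under 0.05, where 19.5% of all tested probe sets did, and 18 had an effect above 0. Their median effect of 0.26 was above that of the other classes here. It was 0.09 with the floor at the 20th percentile and 0.14 with ethanol as a term of its own, under that of some other classes in both. With the floor at the 20th percentile it stayed above the sugar class, at -0.064. The 3 probe sets of the SLC20 family, which brings inorganic phosphate in with sodium, all had values on both PonA arrays above all 3 controls. SLC20A1 read 531 in untransfected cells, 453, 614 and 364 on the controls and 1025 and 681 with PonA at day 1 and day 2 (effect 0.94 ± 0.20, adjusted p = 0.0514, limma). It missed the threshold narrowly, and its ethanol array of day 1 lay not far under its PonA array of day 2. The brighter SLC20A2 probe set read 85.7, then 70.4, 74.5 and 63.1, then 101 and 147 (0.80 ± 0.22, adjusted p = 0.1, limma). Its other probe set read 50.2, then 38.9, 25.2 and 27.7, then 44.3 and 89.0 (1.00 ± 0.32, adjusted p = 0.152, limma), and on both the PonA array of day 2 was the highest of the 6.

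Of the 6 tested zinc transporter probe sets 5 had effects above 0 and none was called by limma, with 2 at an unadjusted p under 0.05 (19.5% of all tested probe sets). SLC39A14, an importer of zinc, iron and manganese, read 414 in untransfected cells, 495, 450 and 407 on the controls and 734 and 770 with PonA (0.76 ± 0.18, adjusted p = 0.0647, limma). Its PonA arrays were close together and above every other array. SLC30A1, the zinc exporter of the plasma membrane, read 76.7, then 66.2, 79.9 and 73.0, then 87.9 and 126 (0.49 ± 0.20, adjusted p = 0.251, limma). SLC39A6, another zinc importer, read 70.1, then 150, 139 and 172, then 171 and 274 (0.43 ± 0.18), so its PonA array of day 1 lay level with untreated cells of day 2. SLC39A7, which releases zinc from the endoplasmic reticulum, read 424, then 587, 286 and 575, then 480 and 306, and its PonA and control arrays overlapped.

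In the SLC4 family, which moves bicarbonate, 4 probe sets were tested, 1 of them with an effect above 0, and both SLC4A4 probe sets were under the floor. SLC4A7, which imports bicarbonate with sodium, read 75.4 in untransfected cells, 48.6, 44.6 and 33.8 on the controls and 29.1 and 28.1 with PonA (-0.50 ± 0.18, adjusted p = 0.198, limma). SLC4A8, which does so in exchange for chloride, read 20.6, then 39.2, 39.98 and 34.8, then 23.2 and 28.3 (-0.46 ± 0.17, adjusted p = 0.209, limma). Neither passed, though both PonA arrays of each lay under all 3 controls. Among cation-chloride cotransporters, SLC12A2, which brings sodium, potassium and chloride into the cell, read 54.0, then 46.9, 65.4 and 50.4, then 71.1 and 81.1 (0.50 ± 0.21, adjusted p = 0.27, limma). SLC12A4, which lets potassium and chloride out, had 3 probe sets with effects of -0.38 ± 0.17, 0.25 ± 0.21 and 0.33 ± 0.20, so that their signs disagreed and no direction is given for the gene.

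In the mitochondrial class, SLC25A20 fell and no probe set of 18 rose. SLC25A20 brings acylcarnitines into the matrix in exchange for carnitine, the entry of long-chain fatty acids into oxidation. Its probe set 32376_at read 54.1 in untransfected cells, 49.2, 42.6 and 45.9 on the controls and 26.1 and 23.3 with PonA, with no overlap and both PonA values close to the floor. The effect was -0.87 ± 0.18 (adjusted p = 0.0437, limma). PonA was at least 1.61-fold below ethanol and at least 1.86-fold below no treatment on day 1, and 1.97-fold below no treatment on day 2. This was the least stable of the 7 calls: it remained under 4 of the 12 alternative settings that gave a value, and each array left out except the ethanol one ended it, with adjusted p of 0.201 and 0.294 when a PonA array was dropped (day 1, day 2) and 0.0538 and 0.274 when an untreated array was dropped.

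SLC25A46 and SLC25A36 had effects above 1 without passing, and were called under 8 and 7 of the 14 alternative settings. SLC25A46 sits in the outer membrane and takes part in mitochondrial shape and fission. It read 78.8 in untransfected cells, 135, 79.3 and 70.7 on the controls and 226 and 394 with PonA at day 1 and day 2 (1.71 ± 0.37, adjusted p = 0.0529, limma). Both PonA arrays were above all others, by 2.85-fold over ethanol and 1.68-fold over no treatment on day 1 and by 5.57-fold on day 2. SLC25A36, a carrier of pyrimidine nucleotides, read 72.1, then 94.3, 96.6 and 77.6, then 150 and 243 (1.08 ± 0.25, adjusted p = 0.0678, limma), again highest with PonA at day 2.

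The aspartate-glutamate carriers, which take part in the malate-aspartate shuttle, differed in the sign of their effects, none of which passed. SLC25A12 read 23.8 in untransfected cells, 28.7, 19.7 and 21.9 on the controls and 40.8 and 34.5 with PonA (0.59 ± 0.17, adjusted p = 0.115, limma). Its untransfected, ethanol and untreated day 2 arrays were under the floor. SLC25A13 read 91.7, then 59.1, 49.6 and 39.7, then 29.0 and 31.3 on probe set 38329_at (-0.66 ± 0.21, adjusted p = 0.141, limma). Its other probe set, at 164, then 114, 100.4 and 87.0, then 84.8 and 91.1, gave -0.16 ± 0.19 and overlapped. The adenine nucleotide carrier gene SLC25A4 read 230, then 203, 203 and 214, then 240 and 250 (0.24 ± 0.16), and the name of the SLC25A5 probe set marks it as one whose probes follow relaxed design rules. The 3 probe sets of SLC25A1 had effects of 0.00, 0.14 and 0.23. Of 14 other mitochondrial membrane genes, none was called by limma, 2 had an unadjusted p under 0.05, 4 had an effect above 0, and their median effect was -0.18.

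Sugar and nucleoside transporters gave few measured values. Of the 7 probe sets of the sugar class, SLC5A2, a sodium-coupled glucose transporter known from the kidney, read 73.7 in untransfected cells, 78.8, 97.0 and 67.6 on the controls and 88.2 and 61.3 with PonA, and overlapped (-0.05 ± 0.18, adjusted p = 0.914, limma). SLC5A4, a relative that senses glucose, read 19.2, then 31.1, 36.2 and 24.3, then 33.9 and 21.6, and was at or near the floor at day 2. The other 5, SLC5A12 among them, were under the floor on all 6 arrays and reached 19.9 at most. SLC29A1 had an effect of 0.10 ± 0.18 (adjusted p = 0.811, limma). SLC29A2, the other equilibrative nucleoside transporter measured, read 61.1, then 19.9, 35.9 and 43.2, then 35.6 and 37.6 (0.04 ± 0.21). SLC28A2, a sodium-coupled nucleoside transporter, read between 12.9 and 30.0. None of the 2 sugar and 3 nucleoside probe sets tested was called by limma, and none had an unadjusted p under 0.05.

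Of the 7 nucleotide sugar transporter probe sets none was called by limma, 2 had an unadjusted p under 0.05 (19.5% of all tested probe sets) and 6 had an effect above 0. SLC35A1, which supplies CMP-sialic acid to the Golgi, read 70.7 in untransfected cells, 154, 114 and 102 on the controls and 161 and 203 with PonA (0.59 ± 0.24, adjusted p = 0.246, limma). Its untreated array of day 1 came close to the PonA array of the same day. SLC37A4, which brings glucose 6-phosphate into the endoplasmic reticulum, read 254, then 300.2, 348 and 278, then 303 and 195 (-0.27 ± 0.19, adjusted p = 0.503, limma), with overlap.

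The single-array comparisons counted probe sets at least 2-fold apart, with no test, over those above the floor on at least 1 of both arrays. All 3 comparisons of PonA with a control share arrays, so their values stand side by side and are not set against each other. For PonA over ethanol on day 1, 8 of 108 SLC probe sets (7.41%) were that far apart, against a background of 5.62% of all probe sets. Of these, 7 were higher (background 3.22%) and 1 was lower (2.4%). For PonA over no treatment on day 1 it was 7 of 108, or 6.48% (background 6.71%), with 5 higher (3.58%) and 2 lower (3.12%). On day 2, PonA over no treatment had 11 of 108, or 10.2% (background 8.71%), with 11 higher (4.67%) and 0 lower (4.04%). All 3 totals lie near their backgrounds. Higher values exceeded their background over ethanol on day 1 (6.48% against 3.22%) and over no treatment on day 2 (10.2% against 4.67%). Over no treatment on day 1 the higher share was 4.63% against 3.58%. Both probe sets of SLC1A1 are counted over ethanol, and on day 2 both of SLC1A1 and both of SLC20A2. At least 2-fold higher in all 3 were 3 of 103 SLC probe sets, or 2.91% (background 1.33%), namely SLC5A3 40813_at, SLC1A1 38268_at and SLC16A4, and 0 were lower in all 3 (background 1.37%). The 7 higher over ethanol included SLC14A2, a urea transporter gene, which read 60.2 in untransfected cells, 33.9, 23.5 and 53.1 on the controls and 51.1 and 50.0 with PonA, at least 2.01-fold over ethanol but within the range of the other arrays.

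Differences between days were read from the comparison of PonA with ethanol at day 1 and of PonA with untreated cells at day 2, which share no array but differ in vehicle. Over 103 SLC probe sets their log2 differences had a Pearson correlation of 0.56 and a Spearman correlation of 0.302, across genes that are not independent replicates and on arrays of 1 scaling. The same over 7610 probe sets of the array gave 0.601 and 0.449. The sign was shared by 58.3% of the SLC probe sets and 64.5% of all, and 61.2% of the SLC probe sets were further from 0 at day 2, near the 58.1% of all. A PonA-by-day term, added after the data were seen and left with 1 residual degree of freedom, was called by limma for 0 of 105 SLC probe sets (background 0%), and 7 of them (6.67%) had an unadjusted p under 0.05, against 4.16% of all. The term is the PonA difference of day 2 minus that of day 1. It was 1.35 for SLC25A46, 1.25 for SLC6A8 33642_s_at, 1.19 for SLC20A2 1137_at, 1.00 for SLC25A36, 0.96 for SLC1A1 38267_at and -1.13 for SLC13A2. The seventh was SLC38A3, whose PonA arrays were under the floor on both days, so that no difference between days can be read for it. Second probe sets gave -0.93 for SLC6A8, 0.73 for SLC20A2 and 0.54 for SLC1A1, so no direction between days is given for SLC6A8.

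**Figure D4:**
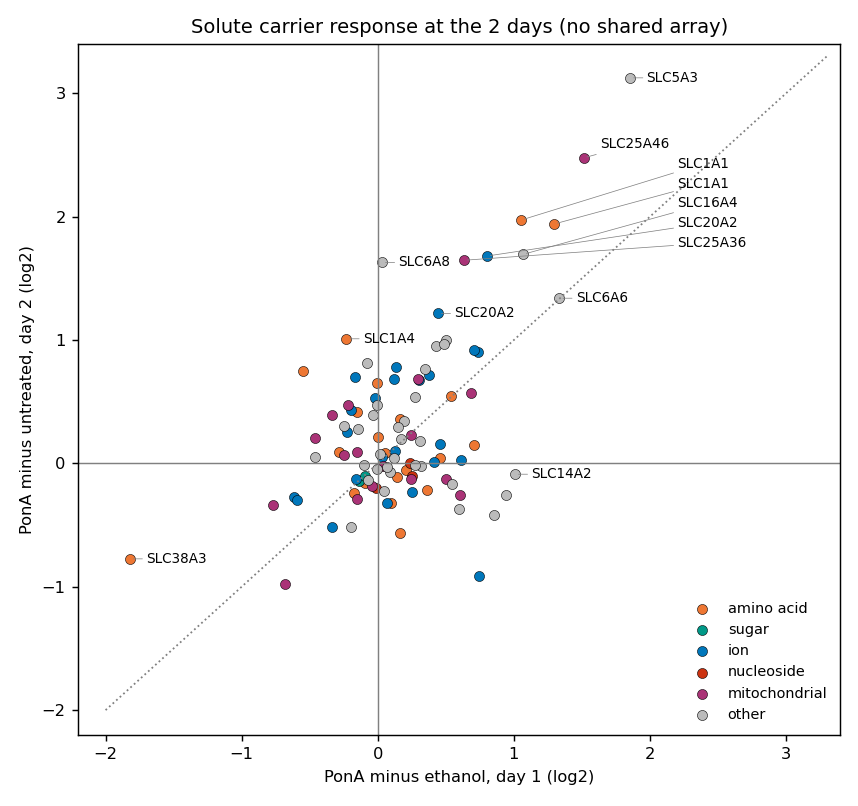
Log2 difference of each SLC probe set for PonA over ethanol at day 1 (horizontal axis) and PonA over untreated cells at day 2 (vertical axis), 1 point per probe set, coloured by substrate class, with equal values on the dotted line and those at least 2-fold apart on either axis named. SLC5A3 lies at the upper right in both, and SLC25A46 stands higher on the vertical axis, at 5.57-fold against 2.85-fold.

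Transfection was compared on untreated cells at day 1, 1 array against 1 array, where the untransfected array also differed in GFAP, NEFL and the spike-ins. Of 109 SLC probe sets, 8 were at least 2-fold apart (7.34%, background 5.72%), 3 of them higher in transfected cells (background 3.08%) and 5 lower (2.64%). Higher were SLC35A1 by 2.17-fold, SLC39A6 by 2.14-fold and SLC1A1 38267_at by at least 2.04-fold. Lower were SLC7A4, a relative of the cationic amino acid carriers, by 3.57-fold, SLC8A1, the sodium-calcium exchanger gene, by at least 2.70-fold, SLC38A3 by 2.33-fold, SLC29A2 by at least 2.32-fold and SLC6A6 by 2.00-fold. SLC8A1 read 70.9 without transfection and between 13.8 and 24.0 on all 5 transfected arrays, under the floor on each of them. SLC7A4 read 97.6 without transfection, then 27.3, 87.8 and 70.8, then 98.1 and 48.0, so the untreated array of day 1 was low by itself among the 6. SLC6A6, by contrast, was lower on all 3 transfected control arrays and reached 120 and 108 of the untransfected 125 with PonA. SLC38A3 was lower on every transfected array than on the untransfected one, and lowest with PonA.

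**Figure D5:**
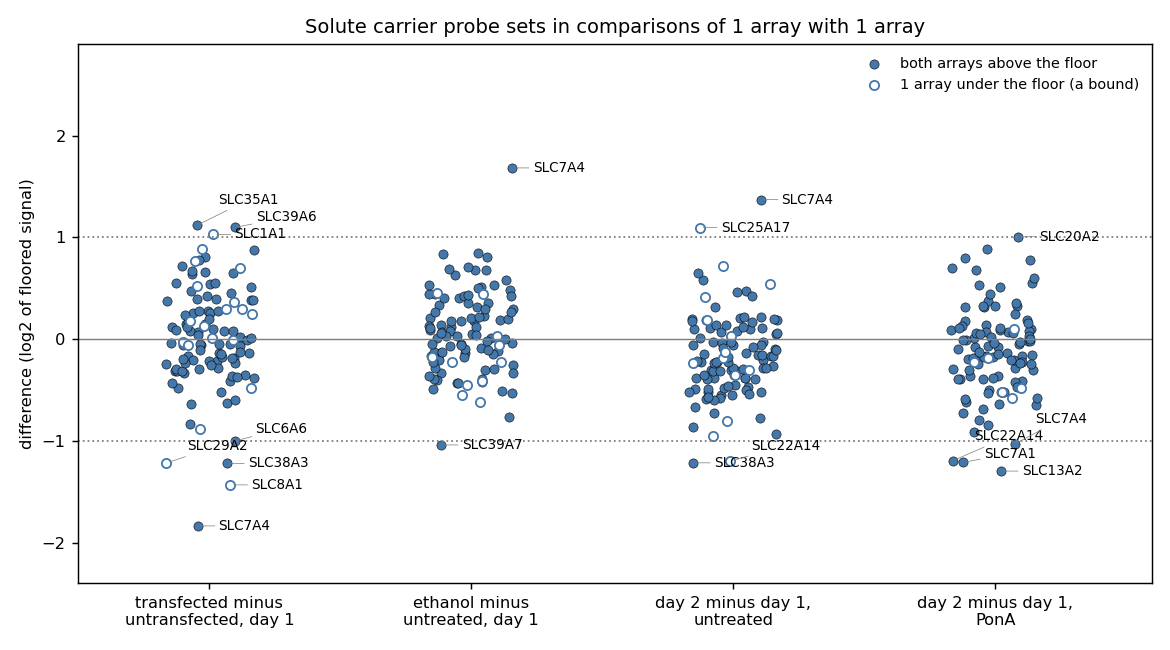
Log2 differences of SLC probe sets (vertical axis) in 4 comparisons of 1 array with 1 array (horizontal axis): transfected minus untransfected, ethanol minus untreated, and day 2 minus day 1 in untreated and in PonA-treated cells. Each point is a probe set, open where 1 array was under the floor, and dotted lines mark 2-fold; few points pass them, and SLC7A4 does so in all 4 comparisons.

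Ethanol, the vehicle of PonA, was compared with no treatment at day 1. Of 104 SLC probe sets, 2 were at least 2-fold apart (1.92%, background 2.18%): SLC7A4, 3.21-fold higher with ethanol (background 1.04%), and SLC39A7, 2.06-fold lower (1.15%). The median log2 difference was 0.09 for the 22 amino acid transporters, 14 of them higher, and -0.18 for mitochondrial carriers, where all probe sets had -0.01. Other probe sets are named here after their values were seen, as examples that were higher with ethanol by less than 2-fold. SLC1A5 was 0.85 higher on the log2 scale with ethanol, the 2 probe sets of SLC1A4 0.84 and 0.80, those of SLC7A1 0.68 and 0.41, and those of SLC25A1 0.63, 0.58 and 0.54. SLC67A1 read 349 in untransfected cells, 339, 554 and 292 on the controls and 467 and 359 with PonA, 0.71 higher with ethanol. Other amino acid transporter probe sets were lower, among them those of SLC7A2 by -0.53 and, with ethanol under the floor, -0.45, and SLC1A6 by -0.34. No ethanol array was repeated, so these differences have no replicate check.

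From day 1 to day 2, untreated transfected cells had 4 of 108 SLC probe sets at least 2-fold apart (3.7%, background 3.19%), 2 of them higher (1.04%) and 2 lower (2.15%). SLC7A4 was 2.59-fold higher and SLC25A17, a family member placed in peroxisomes, at least 2.14-fold higher, at 48.3 in untransfected cells, 14.0, 9.53 and 56.2 on the controls and 30.2 and 51.6 with PonA. SLC38A3 was 2.32-fold lower, and SLC22A14, of the organic ion transporter family, at least 2.30-fold lower. SLC22A14 read 33.4, then 53.3, 55.4 and 20.2, then 55.9 and 24.4, so it was lower at day 2 with and without PonA. With PonA, 5 of 104 probe sets were at least 2-fold apart (4.81%, background 2.93%). The 1 that was higher at day 2 (background 0.882%) was SLC20A2 1137_at by 2.01-fold, and 4 were lower (2.05%). Those were SLC13A2, a transporter of dicarboxylates, by 2.46-fold, SLC7A1 36274_at by 2.31-fold, SLC22A14 by 2.29-fold and SLC7A4 by 2.04-fold. SLC13A2 read 87.7, then 88.2, 72.4 and 71.3, then 131 and 53.4, the highest and the lowest of the 6 both being PonA arrays.

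Other transport genes were described beside the SLC genes. ABC transporters, which do split ATP, had 18 genes tested, of which 1 rose and 0 fell by limma, with 5 at an unadjusted p under 0.05, a share that was 19.5% over all tested probe sets, and a median effect of 0.10. The one that rose was ABCC3, an exporter of organic anions and conjugates, at 305 untransfected, then 233, 351.5 and 274, then 980 and 1113 (1.88 ± 0.23, adjusted p = 0.00863, limma). The 4 tested subunits of the sodium-potassium pump, which keeps up the gradient that many SLC proteins use, had a median effect of 0.39 with 0 called and 1 at an unadjusted p under 0.05. Its subunit gene ATP1B1 read 746, then 1596, 1533 and 550, then 1826 and 1236 (0.63 ± 0.25, adjusted p = 0.227, limma), and was lower at day 2 in each treatment. V-type proton pump subunits had 16 genes tested, 0 called and 2 at an unadjusted p under 0.05, with a median of 0.09. Calcium pumps (5 tested, median 0.10), aquaporins (5 tested, median 0.30) and SLCO organic anion transporters (1 tested, 0.03) also had 0 called, with 0, 2 and 0 at an unadjusted p under 0.05.

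Genes with several probe sets allowed a check of the arrays within a gene. Of 12 genes with at least 2 tested probe sets, the effects had 1 sign in 8 and both signs in 4, which were SLC12A4, SLC35A2, SLC6A7 and SLC7A2. The spread of effects within a gene had a median of 0.32 and was largest in SLC5A3, at 1.86, where 1 probe set was at the floor on every control. With 1 probe set per gene, the brightest, 4 of 91 SLC genes rose and 2 fell (6.59% called), where 4.98% of 5720 named genes were called.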

How the data were processed

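RNA of 6 samples was measured, on 1 array each. The deposited intensity values are MAS5 signal per probe set, on a linear scale, per the submitters' processing notes. The MAS5 version, detection calls and a genome build are not given in the sources used here. The mean of each array without the lowest and highest 2% of probe sets lay between 150.07 and 150.08, so the authors had brought the arrays to a common level, and no further scaling was applied. Gene symbols came from the platform annotation, updated to RefSeq symbols. All 173 SLC probe sets matched. Control probe sets (67) were used for quality only.

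Signals were raised to the 40th percentile of their array and put on the log2 scale. limma 3.58.1 in R 4.3.3 fitted terms for PonA and day to the 5 transfected arrays (residual degrees of freedom 2, prior 4.48), with Benjamini-Hochberg adjustment over 7934 probe sets. The script was tested on simulated data. The other 7 comparisons set 1 array against 1 array and carry no test. Precision is limited by the number of arrays. Where 1 side of a fold was at the floor, the fold is a lower bound.

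The SLC genes, their substrate classes and the other gene lists were chosen with earlier results of these data known. Substrate classes were set by family and, for some genes, by gene. SLC5A3 and SLC5A6 therefore stand with the remaining substrates and SLC5A5 with ion transporters, while other SLC5 genes form part of the sugar class. The genes named were all called ones, the 8 highest and 8 lowest tested effects, the 2 brightest probe sets of each class, those 2-fold or more apart in the same direction in all 3 PonA comparisons, the 4 furthest apart each way in every other comparison, and all probe sets of genes of which only some passed. Other genes were named after their values were seen. In all 14 alternative settings were tried, counting the 5 that leave out an array. The PonA-by-day term, and quantile normalization for the counts without overlap, were added after the data were seen.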

Additional observations from a re-analysis of the deposited data

How the results depend on the processing

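Calls on SLC genes depended on the filter on low signal and on single arrays, and none of the called values changed direction. Against 7 called with PonA, 1 was called with the floor at the 20th percentile, 0 by limma with no filter (27 at an unadjusted p under 0.05), 3 with ethanol as a term of its own and 11 with a trend in eBayes. Over all probe sets these settings called 107, 29, 185 and 625, against 402. Leaving out 1 array gave 2 to 13: 2 when either array of day 2 was dropped, 13 when the ethanol array was, and 6 and 9 when the PonA or the untreated array of day 1 was. The share called over all probe sets moved along, to 1.72% and 1.43% without the untreated or the PonA array of day 2 and to 9.34% without ethanol, against 5.07%. Of the 7, SLC5A3 40813_at kept its call under 12 of 14 settings, and it and SLC38A3 were the 2 called in both fits that lacked a day 2 array. The share of effects above 0, 74.3%, was 61% with ethanol as a term (52.7% over all probe sets), and 58.8% to 73.3% with an array left out. With no filter, where most added values are at the floor, the median effects of ion transporters and of the remaining substrates were both 0.00753, and with an array left out that of nucleoside transporters ran from -0.15 to 0.236. Counts at least 2-fold apart moved with the floor: at the 20th and 60th percentiles they were 17 and 4 for PonA over ethanol, 17 and 4 for PonA over untreated cells at day 1, 20 and 3 for transfection, 10 and 1 for ethanol, 17 and 0 for untreated day 2 over day 1, and 12 and 0 for PonA day 2 over day 1. PonA over untreated cells at day 2 had 22 at the 20th percentile, where 1 probe set was lower in all 3 PonA comparisons. The cause of these moves was not tested. Over the probe sets named by rule and tested, 395 values kept their direction and side of the threshold. Another 26 passed it newly, 36 lost it and 35 changed sign, all of effects that were not called. With ethanol as a term the sign turned for SLC1A5 (-0.44), SLC7A4 (-0.44), the brightest SLC25A1 probe set (-0.30), SLC29A2 (-0.17), SLC75A1 (-0.11), SLC7A1 36274_at (-0.11), SLC10A3 (-0.0367) and SLC39A7 (0.59). It turned without the day term for SLC22A14 (-0.15) and SLC7A1 36274_at (-0.11), and with the floor at the 60th percentile for SLC5A2 (0.0119). With 1 array left out, effects ran from -0.20 to 0.21 for SLC29A2, -0.32 to 0.30 for SLC7A1 36274_at, -0.56 to 1.00 for SLC7A4, -0.14 to 0.0131 for SLC5A2, -0.10 to 0.0177 for SLC5A4, -0.42 to 0.71 for SLC13A2, -0.12 to 0.22 for SLC25A17, -0.10 to 0.26 for SLC29A1, -0.0516 to 0.28 for SLC38A10, -0.13 to 0.75 for SLC1A5, -0.0432 to 0.39 for that SLC25A1 probe set, -0.91 to 0.23 for SLC39A7 and -0.00942 to 0.28 for SLC75A1. SLC20A1 and SLC39A14, not called, were called under 5 and 4 settings. No paired analysis was possible because all 6 arrays carry the same replicate number, which leaves nothing to block on. The day term already sets the arrays of each day together, and without it 8 were called. Signal near the floor limits SLC38A3, SLC25A20 and the second SLC5A3 probe set. It also limits effects that were not called, among them those of SLC25A12, SLC4A8 and SLC20A2 1137_at.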
